A study of Mus musculus with 9 samples.

Results

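The 10 genes described here encode the folding machinery of the endoplasmic reticulum (ER) and the IRE1 and XBP1 arm of its stress response. They are Hspa5, Dnajb9, Hsp90b1, Calr, Canx, Pdia3, Pdia4, Pdia6, Ern1 and Xbp1. They were found by gene symbol in a table of 49315 genes, and all 10 were among the 15963 genes with enough counts to test. RNA was sequenced from RAW 264.7, a line of mouse macrophages used as a model of osteoclast precursors. RANKL, the cytokine behind osteoclast formation, turns them into osteoclast-like cells. The comparisons ask how pamidronate, a nitrogen-containing bisphosphonate that blocks farnesyl diphosphate synthase, changed gene expression, and how it did so when the isoprenoid alcohol geranylgeraniol (GGOH) was present. The first group received 140 µM pamidronate together with 5.25 µM GGOH. The second group received 140 µM pamidronate alone. The third group is the control, labelled as untreated. By the growth notes, which are the same for every sample, cells were cultured for 24 h and then given 20 ng/ml RANKL, and drug was added once 48 h had passed in all. Harvest followed 24 h after that. The controls were therefore read as RANKL-treated cells without pamidronate. Each group has 3 libraries. The cells are of 1 line with no genetic change in the labels. No group with GGOH alone was analysed here, so GGOH is compared only on top of pamidronate.

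Proteins that enter the secretory pathway fold inside the ER with the help of resident chaperones. BiP, the product of Hspa5, binds unfolded chains and also holds the ER stress sensors in their inactive state. When unfolded protein builds up, the sensor IRE1, encoded by Ern1, cuts an intron out of Xbp1 mRNA, and the spliced form encodes a transcription factor for chaperone and degradation genes. The sensors PERK and ATF6 act beside it, the first through translation control and Atf4, the second as a transcription factor released by cleavage. Osteoclasts and macrophages both secrete heavily, and so lean on this machinery. The counts are per gene and do not separate spliced from unspliced Xbp1.

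The libraries held 14356069 to 18957968 counts in genes. Of 10 macrophage markers, 9 could be matched to a single gene, and none of these was at 0 in any group. Their summed level was 14410 to 20970 TPM (a level scaled by gene length and library size) in the pamidronate + GGOH libraries, 9265 to 13500 TPM in the pamidronate libraries and 27410 to 32970 TPM in the controls. Lyz2 made up most of each sum, at a mean of 13280, 8451 and 24380 TPM in the same order of groups. With pamidronate against control, 8 of the 9 markers were called lower and 0 higher (adjusted p under 0.05, edgeR), against 32.9% lower and 36.2% higher among all genes tested. With pamidronate + GGOH against pamidronate, 1 was called lower and 4 higher, against 23.6% and 25.2% of all genes. For pamidronate + GGOH against control, 7 were lower and 0 higher, against 26.0% and 26.3%. Summed markers of epithelial cells, fibroblasts and T cells stayed at or below 2.19 TPM in every library, and those of B and plasma cells, mostly Ighm, ran from 43.1 to 185.1 TPM. Markers without a count were Dcn with pamidronate + GGOH, Ms4a1 with pamidronate, and Epcam, Cdh1, Pdgfra, Dcn, Lum, Cd8a and Ms4a1 in the controls. The part of these marker shifts in the results below was not tested. In bulk RNA, fewer cells of a type and less RNA per cell cannot be told apart.

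The sequence element that marks many ER chaperone promoters was looked up first, because it divides the 10 genes. It is the ER stress response element (ERSE), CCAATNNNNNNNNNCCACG, searched on both strands in RefSeq promoter windows of GRCm38.p6 that run from 250 bases before to 50 after each start site. An exact match stood in the windows of 5 of the 10 genes, against 39 of 32851 windows in the whole table, or 0.119%. With up to 1 mismatch it stood in 7 of the 10, against 1.50% of all windows. Xbp1, Ern1 and Dnajb9 had neither. The element was chosen as a known mark of ER chaperone promoters, so these shares are a description and not a test. No member window held ERSE-II (an ATTGG block and a CCACG block with 1 base between), UPRE (TGACGTGG), CRE (TGACGTCA) or CARE (TGATGCAA), which stood in 0.0365%, 0.676%, 1.79% and 0.895% of all windows. ERSE-II shares both blocks of the ERSE, UPRE contains CGTGG, the reverse complement of CCACG, and UPRE and CRE share their first letters. The exact matches, and the matches with 1 mismatch in genes without an exact one, are printed with 5 bases on each side, read 5′ to 3′ along the strand of the gene, with the element in capitals. Where it lies on the opposite strand of the gene, CGTGG comes first. A further Hsp90b1 match with 1 mismatch, from -172 to -154 of the start site, is not printed. In Pdia3 and Pdia4 the single base that departs from the element is in lower case.
Hspa5, chr2:34772020-34772048, plus strand: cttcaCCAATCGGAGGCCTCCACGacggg
Hsp90b1, chr10:86705633-86705661, minus strand: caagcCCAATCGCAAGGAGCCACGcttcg
Hsp90b1, chr10:86705528-86705556, minus strand: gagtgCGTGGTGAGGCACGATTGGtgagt
Calr, chr8:84847070-84847098, minus strand: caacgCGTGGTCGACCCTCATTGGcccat
Canx, chr11:50325795-50325823, minus strand: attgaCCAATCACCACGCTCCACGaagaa
Pdia6, chr12:17266486-17266514, plus strand: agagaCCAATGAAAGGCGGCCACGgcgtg
Pdia3, chr2:121413868-121413896, plus strand: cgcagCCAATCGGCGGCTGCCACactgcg
Pdia4, chr6:47813597-47813625, minus strand: aaccgaGTGGCAGCCCGTGATTGGtggtc
For Xbp1, the 150 bases before the start site are given because this gene fell while Hspa5 rose. They hold none of these elements.
Xbp1, chr11:5520491-5520640, plus strand: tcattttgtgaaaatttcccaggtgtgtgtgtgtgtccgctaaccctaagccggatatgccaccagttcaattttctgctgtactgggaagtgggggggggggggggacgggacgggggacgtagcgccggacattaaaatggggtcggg
A match in such a window describes its letters and says nothing of binding. The files start Hspa5 and Pdia3 upstream of their RefSeq starts, so the matches of both lie inside the genes as the files give them.

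With pamidronate alone against control, 4 of the 10 genes were called higher, namely Hspa5, Dnajb9, Ern1 and Calr. Another 3 were called lower, namely Xbp1, Canx and Pdia3, and Hsp90b1, Pdia4 and Pdia6 were not called. A gene is called here at an adjusted p under 0.05 in edgeR's quasi-likelihood test, adjusted over all genes tested. Among all genes tested, 36.2% were called higher and 32.9% lower, so neither count for the 10 genes stands far from its background. The groups did not overlap for 7 of the 10, against 73.4% of all genes. The median log2 fold change was 0.19 over the 10 genes and 0.08 over all genes tested. Other ways of scaling libraries moved the split of calls: it became 6 higher and 2 lower with upper-quartile factors, and 5 higher and 2 lower with library totals alone. These scalings shifted the median log2 fold change of all genes to 0.28 and 0.15.

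**Figure D1:**
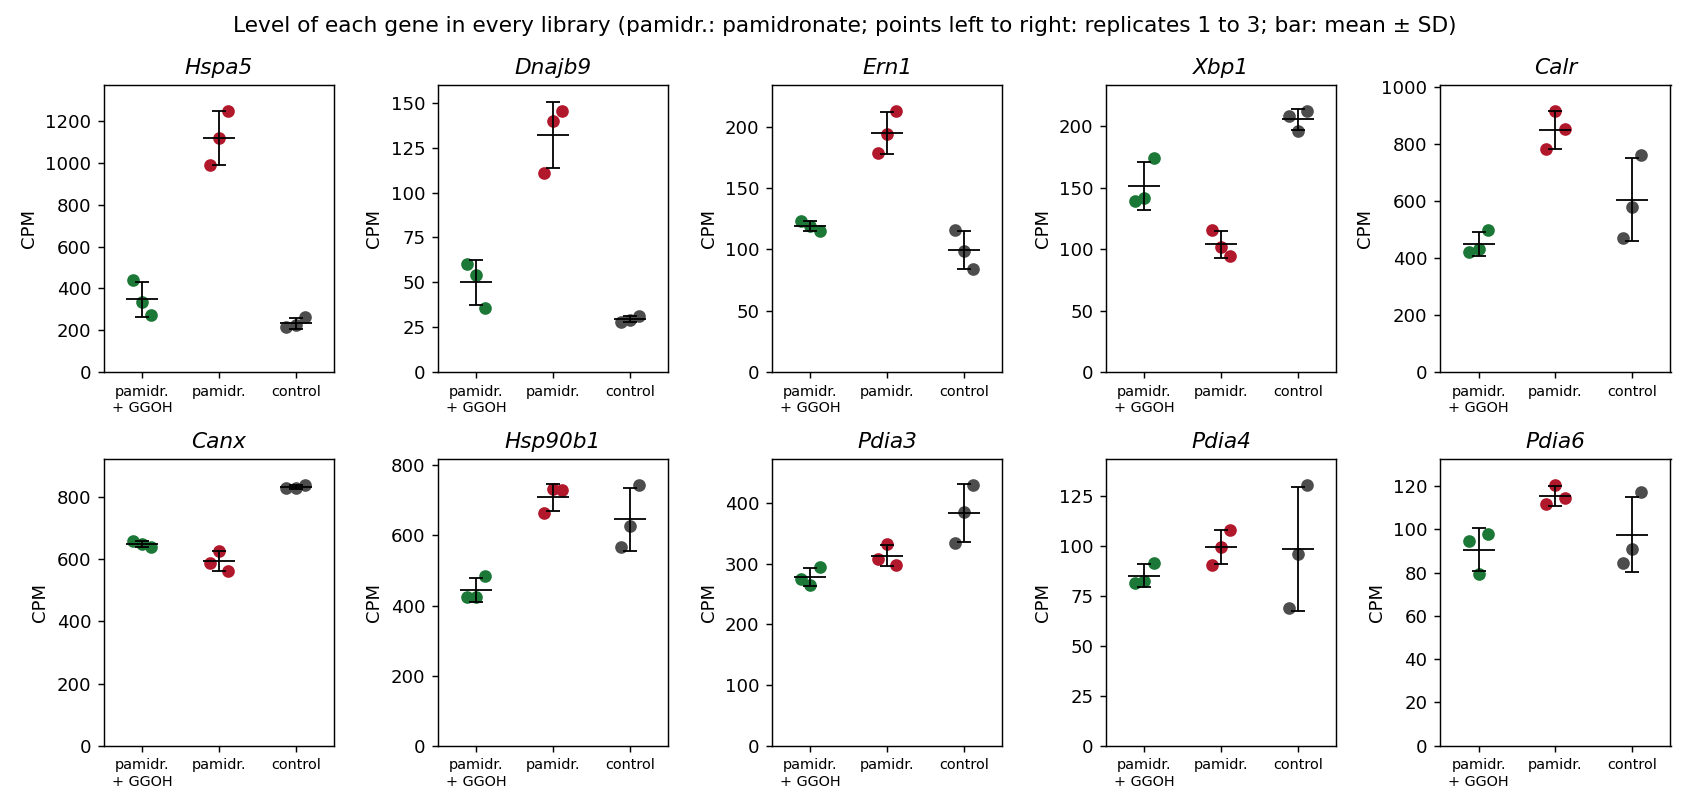
Level of each of the 10 genes in CPM (counts scaled to library size with TMM factors) in the 3 libraries of each group, with bars for mean ± SD. Hspa5 is at 988.5 CPM or more in the pamidronate libraries and at 438.0 CPM or less in all others, Dnajb9 at 111.1 or more and 60.11 or less, while Xbp1 is lowest in the pamidronate libraries.

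Hspa5 (chr2:34771970-34777547, GRCm38, plus strand) encodes BiP, the Hsp70 chaperone of the ER. It had 438.0, 333.5 and 273.8 CPM in the pamidronate + GGOH libraries, 988.5, 1118 and 1248 CPM in the pamidronate libraries and 214.6, 224.1 and 264.1 CPM in the controls. The 3 groups did not overlap. Hspa5 rose 4.77-fold with pamidronate against control, or 2.26 ± 0.16 on the log2 scale (± SE, adjusted p = 7.56e-08, edgeR). With GGOH added it was 3.21-fold lower than with pamidronate alone (log2 -1.68 ± 0.16, adjusted p = 3.25e-06). It still lay above control by 0.57 ± 0.16 on the log2 scale (adjusted p = 0.00757). That last difference was 0.37 without pamidronate + GGOH replicate 1, the highest library of its group (adjusted p = 0.0349).

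Dnajb9 (chr12:44205897-44210068, minus strand) encodes ERdj4, a J-domain partner of BiP that is known to hold IRE1 in check and is a known target of spliced XBP1. Its levels were 60.11, 53.89 and 35.75 CPM with pamidronate + GGOH, 111.1, 139.8 and 145.4 CPM with pamidronate, and 27.92, 29.17 and 31.04 CPM in the controls. Here too the 3 groups did not overlap. Dnajb9 rose 4.50-fold with pamidronate against control (log2 2.17 ± 0.18, adjusted p = 8.14e-07, edgeR). It was 2.65-fold lower with pamidronate + GGOH than with pamidronate (log2 -1.41 ± 0.17, adjusted p = 5.43e-05), and 1.70-fold higher than in the controls (log2 0.76 ± 0.17, adjusted p = 0.00356). For both genes, pamidronate + GGOH replicate 3 was the library of its group nearest to the controls. In the ranking of all 15963 tested genes by log2 fold change with pamidronate against control, Hspa5 stood at position 1205 and Dnajb9 at 1306 from the top. Against pamidronate alone, the fall of Hspa5 with GGOH lay in the lowest 1.2% of genes and that of Dnajb9 in the lowest 2.5%.

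Ern1 (chr11:106394650-106487852, minus strand) encodes IRE1, the sensor whose nuclease splices Xbp1. It had 123.0, 119.3 and 115.3 CPM with pamidronate + GGOH, 178.3, 194.3 and 212.8 CPM with pamidronate, and 115.7, 98.99 and 84.40 CPM in the controls. The pamidronate libraries were the highest 3 of the 9, and the other groups overlapped. Ern1 rose 1.96-fold with pamidronate against control (log2 0.97 ± 0.11, adjusted p = 1.78e-06, edgeR) and was 1.64-fold lower with pamidronate + GGOH than with pamidronate (log2 -0.71 ± 0.11, adjusted p = 8.64e-05). Between pamidronate + GGOH and control it was not called, with a log2 fold change of 0.26 ± 0.11 and an adjusted p of 0.0569. It passed the threshold there without control replicate 1 (0.37, adjusted p = 0.00723), with upper-quartile factors (0.46, adjusted p = 0.00391), with library totals (0.49, adjusted p = 0.000995), with a stricter filter (0.29, adjusted p = 0.0343) and with limma-voom (0.27, adjusted p = 0.0483).

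Xbp1 (chr11:5520659-5525893, plus strand) encodes the transcription factor that IRE1 switches on, and moved the other way. It had 139.4, 141.3 and 174.0 CPM with pamidronate + GGOH, 115.9, 101.6 and 94.58 CPM with pamidronate, and 208.7, 195.8 and 212.4 CPM in the controls. The groups did not overlap, and the GGOH libraries lay between the others. Xbp1 was 1.98-fold lower with pamidronate than in control (log2 -0.98 ± 0.10, adjusted p = 1.01e-06, edgeR). With pamidronate + GGOH it was 1.46-fold higher than with pamidronate (log2 0.54 ± 0.10, adjusted p = 0.000569) and 1.36-fold lower than in control (log2 -0.44 ± 0.10, adjusted p = 0.00249). The last call was lost with library totals alone (log2 -0.21, adjusted p = 0.0936). The deposited TPM of Xbp1 overlapped between those groups, at 119.3 to 153.5 with pamidronate + GGOH and 136.6 to 154.3 in the controls. Sensor and target mRNA thus differed in opposite directions in both comparisons with pamidronate alone, while Ern1 was not called between pamidronate + GGOH and control. The log2 ratio of Xbp1 to Ern1 counts was 0.18, 0.24 and 0.59 with pamidronate + GGOH, -0.62, -0.94 and -1.17 with pamidronate, and 0.85, 0.98 and 1.33 in the controls. The log2 ratio of Dnajb9 to Xbp1 was -1.21, -1.39 and -2.28 with pamidronate + GGOH, -0.06, 0.46 and 0.62 with pamidronate, and -2.9, -2.75 and -2.77 in the controls. Neither ratio overlapped between any of the groups, and neither depends on how libraries are scaled.

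Calr and Canx encode calreticulin and calnexin, the soluble and the membrane-bound lectin chaperones that hold glycoproteins while they fold. Calr (chr8:84841850-84846934, minus strand) had 420.0, 430.4 and 497.4 CPM with pamidronate + GGOH, 782.5, 915.2 and 851.7 CPM with pamidronate, and 471.1, 579.6 and 759.3 CPM in the controls. Every pamidronate library lay above every other library, with control replicate 3 just under the lowest of them. Calr rose 1.41-fold with pamidronate against control (log2 0.49 ± 0.15, adjusted p = 0.00789, edgeR), a call that was lost without control replicate 2 (log2 0.41, adjusted p = 0.0549). It was 1.89-fold lower with pamidronate + GGOH than with pamidronate (log2 -0.92 ± 0.15, adjusted p = 0.000170). Its levels with pamidronate + GGOH overlapped those of the controls, and the log2 fold change of -0.43 ± 0.15 there (adjusted p = 0.0251) rested on single libraries and on scaling. It was not called without pamidronate + GGOH replicate 1 (adjusted p = 0.0752), without replicate 2 (0.0781), without control replicate 3 (log2 -0.24, 0.103), with upper-quartile factors (log2 -0.22, 0.189), with library totals (log2 -0.20, 0.294) or in a fit of those groups alone (0.0709).

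Canx (chr11:50293961-50325673, minus strand) had 658.2, 647.6 and 638.6 CPM with pamidronate + GGOH, 588.8, 626.0 and 563.0 CPM with pamidronate, and 826.7, 828.9 and 838.6 CPM in the controls. The controls were the highest 3 libraries. Canx fell with pamidronate against control by 0.49 ± 0.09 on the log2 scale (1.40-fold lower, adjusted p = 0.000150, edgeR), and by 0.29 with upper-quartile factors. With pamidronate + GGOH it was not called against pamidronate (log2 0.13 ± 0.09, adjusted p = 0.232), though it was called higher with library totals alone (log2 0.30, adjusted p = 0.00706). Against control it was lower by a log2 fold change of -0.36 ± 0.09 (adjusted p = 0.00305), and this call was lost with upper-quartile factors (log2 -0.16, adjusted p = 0.131) and with library totals (log2 -0.13, adjusted p = 0.199). In TPM, Canx overlapped between those groups, at 389.9 to 400.7 with pamidronate + GGOH and 374.6 to 421.8 in the controls. The lectins therefore parted with pamidronate. The log2 ratio of Calr to Canx was -0.65, -0.59 and -0.36 with pamidronate + GGOH, 0.41, 0.55 and 0.60 with pamidronate, and -0.81, -0.52 and -0.14 in the controls, so the pamidronate libraries stood apart and the other groups overlapped.

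Hsp90b1 (chr10:86690209-86705509, minus strand) encodes GRP94, the Hsp90 of the ER, which matures receptors and integrins. It had 425.0, 424.6 and 485.0 CPM with pamidronate + GGOH, 664.8, 732.6 and 728.5 CPM with pamidronate, and 567.6, 628.0 and 744.7 CPM in the controls. The pamidronate libraries and the controls overlapped, and the GGOH libraries lay below both. With pamidronate against control its log2 fold change was 0.13 ± 0.11 (95% interval -0.10 to 0.37, adjusted p = 0.293, edgeR), and it was called higher with upper-quartile factors (log2 0.33, adjusted p = 0.0111). With pamidronate + GGOH, Hsp90b1 was 1.59-fold lower than with pamidronate (log2 -0.67 ± 0.11, adjusted p = 0.000168) and 1.45-fold lower than in control (log2 -0.54 ± 0.11, adjusted p = 0.000950). The second difference was -0.34 with upper-quartile factors and -0.31 with library totals. Its exons overlap those of 1810014B01Rik on the opposite strand over 415 bases, a gene with 41 to 130 counts a library, and of Gm15344 on the same strand over 84 bases, with 20 to 171 counts. Hsp90b1 itself had 6816 to 12044 counts.

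The disulfide isomerases Pdia3, Pdia4 and Pdia6 encode ERp57, ERp72 and P5, which form and reshuffle disulfide bonds, ERp57 as the partner of the lectins. Pdia3 (chr2:121413775-121438687, plus strand) had 274.8, 264.4 and 294.2 CPM with pamidronate + GGOH, 308.7, 332.3 and 298.7 CPM with pamidronate, and 334.5, 386.0 and 430.3 CPM in the controls. The groups lay next to each other without overlap, with the controls highest. Pdia3 fell with pamidronate against control by 0.29 ± 0.10 on the log2 scale (adjusted p = 0.0171, edgeR). The call was lost without pamidronate replicate 1 (adjusted p = 0.0525), without pamidronate replicate 3 (0.0636), with library totals (0.0522) and with upper-quartile factors (log2 -0.10, 0.362). With pamidronate + GGOH it was not called against pamidronate (log2 -0.17 ± 0.10, adjusted p = 0.168) and was lower than in control (log2 -0.47 ± 0.10, adjusted p = 0.00144), a call lost with library totals (log2 -0.24, adjusted p = 0.0627).

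Pdia6 (chr12:17266545-17284770, plus strand) had 94.85, 79.18 and 97.99 CPM with pamidronate + GGOH, 111.5, 120.6 and 114.3 CPM with pamidronate, and 84.40, 90.92 and 117.2 CPM in the controls. Control replicate 3 lay among the pamidronate libraries. The log2 fold change with pamidronate against control was 0.24 ± 0.12 (95% interval -0.01 to 0.49, adjusted p = 0.0759, edgeR). Without control replicate 3 it was 0.34 and passed the threshold (adjusted p = 0.0114), as it did with upper-quartile factors (0.44, adjusted p = 0.00274), library totals (0.30, adjusted p = 0.0374) and a stricter filter (0.27, adjusted p = 0.0484). With pamidronate + GGOH it was lower than with pamidronate (log2 -0.35 ± 0.12, adjusted p = 0.0232). That call was lost without pamidronate + GGOH replicate 1 (adjusted p = 0.0539) or 2 (log2 -0.21, 0.192), without pamidronate replicate 2 (0.0783) or 3 (0.0505), without control replicate 2 (0.0571) and with library totals (log2 -0.18, 0.235). Against control, Pdia6 with pamidronate + GGOH was not called (log2 -0.10 ± 0.12, 95% interval -0.35 to 0.15, adjusted p = 0.472).

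Pdia4 (chr6:47796141-47813430, minus strand) had 81.40, 82.23 and 91.58 CPM with pamidronate + GGOH, 90.68, 99.69 and 108.0 CPM with pamidronate, and 68.92, 96.13 and 130.6 CPM in the controls. The controls spanned both other groups, and Pdia4 was called in none of the comparisons. Its log2 fold change was 0.01 ± 0.19 with pamidronate against control (95% interval -0.41 to 0.44, adjusted p = 0.953, edgeR). It was -0.23 ± 0.19 for pamidronate + GGOH against pamidronate (-0.65 to 0.20, adjusted p = 0.359) and -0.21 ± 0.19 against control (-0.64 to 0.21, adjusted p = 0.373). Without control replicate 1, its lowest library, it was called lower with pamidronate + GGOH than in control (log2 -0.42, adjusted p = 0.00940). In the controls, replicate 1 was the lowest and replicate 3 the highest for Calr, Canx, Hsp90b1, Pdia3, Pdia4, Pdia6, Hspa5 and Dnajb9, while Ern1 was highest in replicate 1 and lowest in replicate 3.

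For pamidronate + GGOH against pamidronate, 1 of the 10 genes was called higher (Xbp1) and 6 lower (Hspa5, Dnajb9, Calr, Ern1, Hsp90b1 and Pdia6). Among all genes tested, 25.2% were called higher and 23.6% lower. The groups did not overlap for 9 of the 10 genes, all but Pdia4, against 59.6% of all genes. The median log2 fold change was -0.51 over the 10 genes and 0.00 over all genes. With library totals alone the split was 2 higher and 5 lower, and the median of all genes shifted to 0.17. This comparison and that of pamidronate with control share the pamidronate libraries.

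For pamidronate + GGOH against control, 2 genes were called higher (Hspa5 and Dnajb9) and 5 lower (Hsp90b1, Calr, Canx, Pdia3 and Xbp1). Among all genes tested, 26.3% were called higher and 26.0% lower. The groups did not overlap for 6 of the 10 genes, against 58.2% of all genes. The median log2 fold change was -0.28 over the 10 genes and 0.02 over all genes. The lower calls depend on scaling: with upper-quartile factors the split was 3 higher and 3 lower, and with library totals 3 higher and 1 lower, that one being Hsp90b1. The median of all genes shifted to 0.23 and 0.26 under these scalings.

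**Figure D2:**
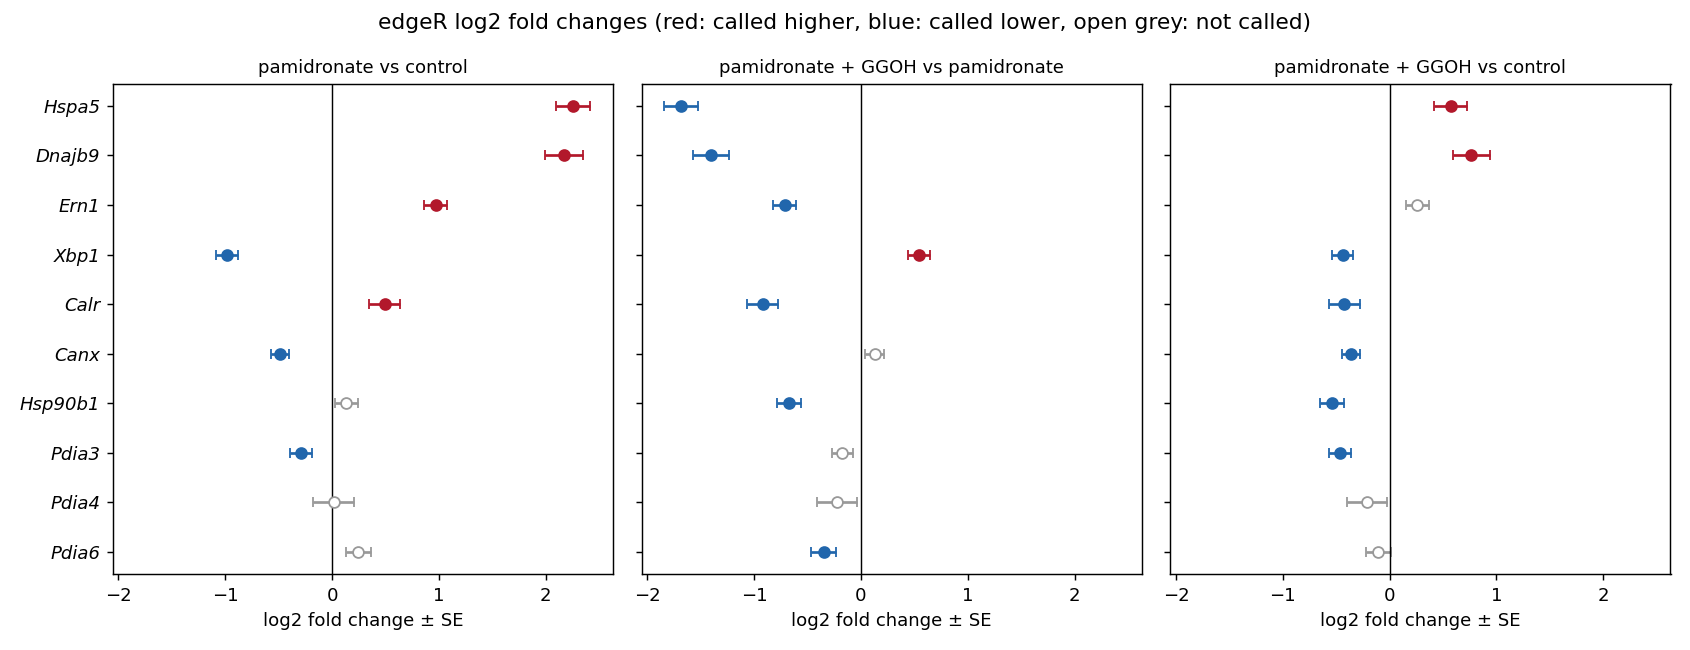
Log2 fold change of each gene (edgeR, bars are ± SE) in the 3 comparisons, with filled red points for genes called higher, filled blue for lower and open grey for not called. Hspa5 and Dnajb9 lie at 2.26 and 2.17 with pamidronate against control, and Xbp1 at -0.98.

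Set against Hspa5 within each library, which removes the scaling of libraries, the genes fell into an order. The log2 ratio of Dnajb9 to Hspa5 counts was -2.86, -2.63 and -2.94 with pamidronate + GGOH, -3.15, -3.0 and -3.10 with pamidronate, and -2.94, -2.94 and -3.09 in the controls. The pamidronate and control ratios overlapped and differed by -0.10, so with pamidronate the chaperone and its J-domain partner changed by nearly equal factors. With pamidronate + GGOH the ratio of Dnajb9 to Hspa5 was higher than with pamidronate by 0.27 and than in control by 0.18, without overlap. Against control that separation is smaller than the rounding, since the nearest libraries of both groups print as -2.94. Hspa5 itself rose 4.77-fold with pamidronate and was 3.21-fold lower with GGOH added. The ratio of an unchanged gene to Hspa5 therefore falls with pamidronate and is higher again with GGOH. For each of the other 8 genes the ratio to Hspa5 was lower in every pamidronate library than in any control, and the share of all genes with this pattern was not counted. The difference in means was -1.28 for Ern1, -1.74 for Calr, -2.0 for Pdia6, -2.12 for Hsp90b1, -2.20 for Pdia4, -2.54 for Pdia3, -2.74 for Canx and -3.24 for Xbp1. An exact two-sided permutation test gave p = 0.1 for each of these 8 and p = 0.2 for Dnajb9, where 0.1 is the smallest p that 3 libraries against 3 can reach. Over the 27 such comparisons made, the smallest adjusted p was 0.1125, so no ratio could pass 0.05 in this design. With pamidronate + GGOH, the ratios of these 8 genes were higher than with pamidronate in every library, by 0.78 for Calr to 2.24 for Xbp1. Those of all but Ern1 and Pdia4 remained below every control. Hspa5 itself was still above control there (log2 0.57), so the ratio of an unchanged gene also stays below control. The share of all genes with either pattern was not counted.

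**Figure D3:**
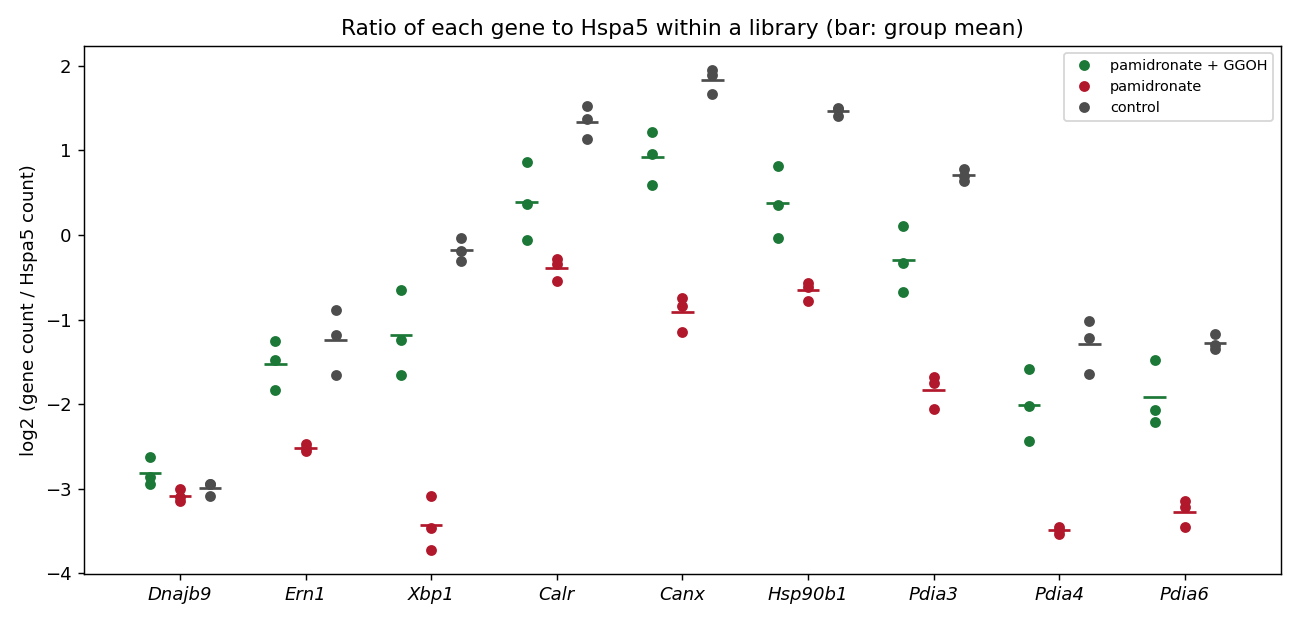
Log2 ratio of each gene's count to the Hspa5 count in the same library, 3 points a group with a bar for the mean. For Dnajb9 all 9 libraries lie between -3.15 and -2.63, while for Xbp1 the mean of the pamidronate libraries is -3.42, against -0.18 in the controls.

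Compared per length, in the deposited TPM values, the places of Hspa5, Dnajb9 and Xbp1 in the order of the 10 genes differed between the groups. Calr led in every group, at 444.8 ± 45.7 TPM with pamidronate + GGOH, 731.7 ± 40.5 TPM with pamidronate and 478.3 ± 138 TPM in the controls (SD, n = 3 each). Hspa5 had rank 5 with pamidronate + GGOH at 234.2 ± 51.4 TPM, rank 2 with pamidronate at 655.6 ± 64.8 TPM and rank 6 in the controls at 125.9 ± 20.0 TPM. In the pamidronate libraries its range overlapped that of Calr, and both lay above Hsp90b1 at 436.0 ± 12.9 TPM. Dnajb9 had rank 8 with pamidronate + GGOH at 76.1 ± 18.6 TPM, rank 6 with pamidronate at 175.5 ± 20.7 TPM and rank 9 in the controls at 35.8 ± 3.74 TPM. Xbp1 had rank 6 with pamidronate + GGOH at 133.0 ± 18 TPM, rank 8 with pamidronate at 79.7 ± 10.2 TPM and rank 5 in the controls at 143.4 ± 9.55 TPM. Ern1 was the lowest of the 10 in every group, at 41.6 ± 1.01, 59.2 ± 4.27 and 27.5 ± 2.9 TPM in the same order of groups. Neighbours in the order could not always be parted by their ranges. With pamidronate + GGOH, Pdia3 overlapped Hspa5 and Dnajb9 overlapped Pdia6. With pamidronate, Xbp1 overlapped Pdia6. In the controls the first 4 (Calr, Canx, Hsp90b1 and Pdia3) overlapped neighbour by neighbour, and so did Xbp1, Hspa5, Pdia4 and Pdia6.

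Added up, the 8 folding genes (all but Ern1 and Xbp1) took 1874, 1859 and 1923 TPM with pamidronate + GGOH, 2608, 2807 and 2802 TPM with pamidronate, and 1497, 1824 and 2193 TPM in the controls. In these deposited values the pamidronate libraries were highest, and the GGOH libraries lay inside the range of the controls. That second placing depends on scaling. In TPM from TMM-scaled libraries, mean Calr was 391.0 with pamidronate + GGOH against 525.8 in the controls, and Canx 346.2 against 444.7. Hsp90b1 was at 276.5 against 402.6 and Pdia3 at 221.9 against 306.7, with Pdia4 and Pdia6 lower too. Only Hspa5 (206.5 against 139.0) and Dnajb9 (67.08 against 39.53) were higher there. Hspa5 made up 15.4%, 12.3% and 9.65% of that sum with pamidronate + GGOH, 22.9%, 23.0% and 25.9% with pamidronate, and 7.21%, 6.71% and 6.72% in the controls. That share did not overlap between any of the groups.

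**Figure D4:**
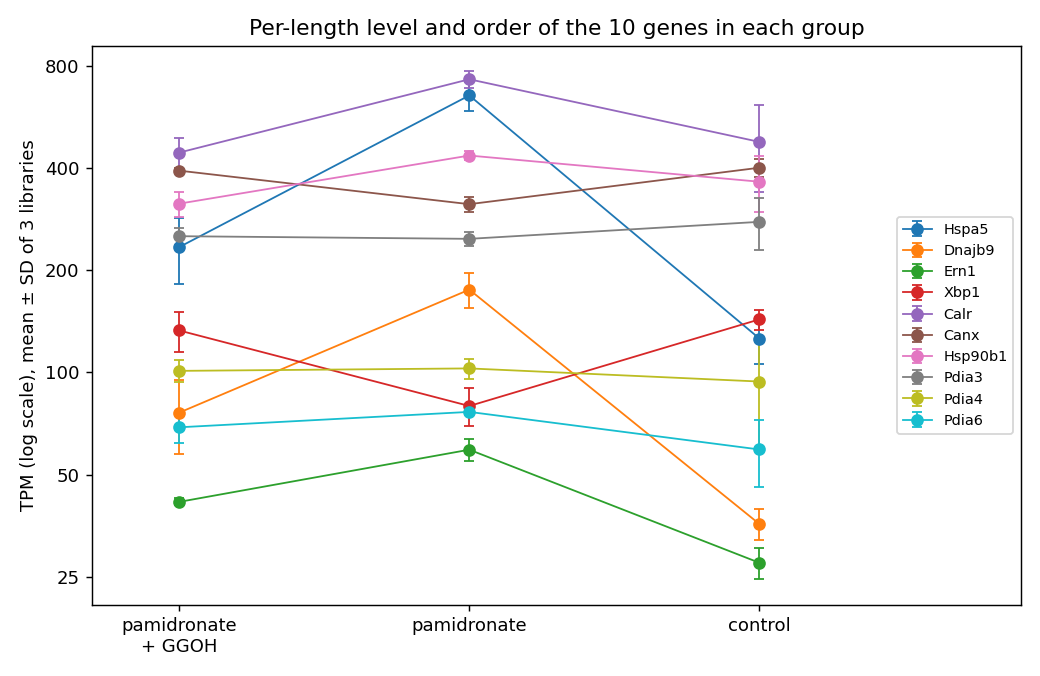
Mean ± SD of the deposited TPM over 3 libraries for each gene and group, on a log axis, with lines joining the means of 1 gene. Hspa5 stands at 234.2 TPM with pamidronate + GGOH, 655.6 with pamidronate and 125.9 in the controls, and crosses Canx, Hsp90b1 and Pdia3, while Xbp1 runs opposite to it.

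Across the 9 libraries, the genes most like Hspa5 were found by the root mean square difference of log2 CPM after centring each gene, over 9371 genes with at least 5 CPM on average. The nearest was Gde1 at 0.11, then Dnajb9 at 0.15, Tgoln1 at 0.17, Suco at 0.17 and Rabl3 at 0.18, against a median of 1.06 over all genes compared. Nearest to Dnajb9 were Tgoln1 at 0.10, Rc3h1 at 0.11, Bhlhe40 at 0.11, Gde1 at 0.11 and Taf1a at 0.13. Nearest to Xbp1 were Arhgap30 at 0.06, Atp5b at 0.06, Stap1 at 0.07, Babam1 at 0.07 and Arhgef1 at 0.07, against a median of 0.45. Within the set, the closest pairs after Hspa5 and Dnajb9 were Canx with Pdia3 and Pdia4 with Pdia6, each at 0.16, and Hsp90b1 with Calr at 0.17. These are descriptions over libraries that share 3 treatments.

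The ERSE letters did not go with one direction among the 10 genes. Of the 5 with an exact match, Hspa5 and Calr were called higher with pamidronate against control, Canx lower, and Hsp90b1 and Pdia6 were not called. Dnajb9 and Ern1 rose without a match in the window. Of 32 other genes with an exact match, 10 were tested. With pamidronate against control, 4 of these were called higher, among them Syvn1, the ligase of ER-associated degradation (log2 0.67), and 1 lower, counts of 10 that lie near the 36.2% and below the 32.9% of all genes. The BiP partner Dnajc3, which has the element too, was not called there (log2 -0.09, adjusted p = 0.465, edgeR).

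The other genes of the folding and stress pathway were read from lists written with earlier results of these data known, against the same backgrounds of 36.2% called higher and 32.9% lower. Genes named from a list averaged 5 CPM or more with pamidronate or in control. Of 10 other ER chaperones and co-chaperones tested, 1 was called higher with pamidronate against control and 3 lower. Manf, a secreted protein that binds BiP, was the one called higher, at 124.5, 140.2 and 204.2 CPM with pamidronate and 74.76, 89.36 and 117.9 CPM in the controls (log2 0.73). Dnajc10, the reductase ERdj5, was 2.75-fold lower (log2 -1.46), with 42.04, 43.39 and 37.72 CPM against 104.1, 117.4 and 117.5 CPM in the controls, and Sdf2l1, a BiP cofactor, was lower by a log2 fold change of -0.76. Dnajc10 was higher with pamidronate + GGOH than with pamidronate (log2 1.00), while Manf (-0.44, adjusted p = 0.105) and Sdf2l1 (0.15, adjusted p = 0.388, both edgeR) were not called there. Of 14 other disulfide isomerases and oxidases, 7 were higher and 6 lower. At that level, the largest rises were those of Tmx4 (log2 0.79) and the oxidase Ero1l (0.50), and the largest falls those of Tmx1 (-1.07) and Tmx3 (-0.88). Of 11 genes of N-glycan trimming and glycoprotein quality control, the route that Calr and Canx serve, 1 was higher and 8 lower, with a median of -0.45. Edem3 rose (log2 0.61), and at that level the largest falls were those of the lectin gene Mlec (-0.98) and the glucosidase subunit Ganab (-0.81).

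Of 16 genes of ER-associated degradation, 7 were called higher and 4 lower with pamidronate against control. The ubiquitin-conjugating enzyme Ube2g2 (log2 1.02) and Ubxn4 (0.89) rose and were lower again with GGOH than with pamidronate (-0.95 and -0.73), while the lectin Os9 (-1.17) and Ube2j1 (-1.0) fell. Among 8 other sensors and their processing genes, 2 rose and 3 fell. Creb3, an ER membrane transcription factor, had 25.49, 19.93 and 16.66 CPM with pamidronate + GGOH, 53.71, 52.88 and 54.32 CPM with pamidronate and 15.65, 16.52 and 17.81 CPM in the controls, a log2 fold change of 1.69 for pamidronate against control. Eif2ak3, which encodes PERK, rose too (log2 0.76). Mbtps2, a protease in the release of ATF6, fell (-1.28), and so did Atf6b (-0.70). Atf6 itself (-0.16, adjusted p = 0.089) and the other such protease gene, Mbtps1 (0.06, adjusted p = 0.604, both edgeR), were not called. Of 8 effectors of the PERK arm, 5 rose and 1 fell, with a median of 1.69. Atf4 had 395.2, 335.8 and 260.7 CPM with pamidronate + GGOH, 734.9, 788.2 and 904.9 CPM with pamidronate and 162.0, 155.6 and 138.3 CPM in the controls (log2 2.41 for pamidronate against control). Ddit3, which encodes CHOP, had a log2 fold change of 2.86 in the same comparison, and Asns, the asparagine synthetase gene, fell (-0.50). Between pamidronate + GGOH and control, 5 of these 8 were called higher and 0 lower, Ddit3 at 1.82 and Atf4 at 1.12, against 26.3% higher and 26.0% lower of all genes tested.

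Of 20 genes of the translocon and signal sequence handling, 9 were higher and 8 lower with pamidronate against control. Srpr encodes a subunit of the receptor for the signal recognition particle. It had 161.7, 115.6 and 118.0 CPM with pamidronate + GGOH, 463.3, 464.6 and 460.4 CPM with pamidronate and 137.9, 123.2 and 121.7 CPM in the controls (log2 1.86 for pamidronate against control and -1.81 for pamidronate + GGOH against pamidronate). Sec61a2 also rose (1.47), and Tram1 (-0.92) and Spcs2 (-0.78) fell. Of 10 genes of ER calcium handling, on which calreticulin and BiP depend as calcium binders, 1 rose and 8 fell, with a median of -0.53. Sdf4 rose (0.38), while the calcium pump gene Atp2a3 had 62.38, 76.13 and 109.2 CPM with pamidronate + GGOH, 23.59, 22.07 and 24.40 CPM with pamidronate and 154.0, 207.6 and 256.8 CPM in the controls (log2 -3.14 for pamidronate against control), and Itpr3, a calcium release channel, fell by 1.16 on the log2 scale. Of 6 listed mRNAs that IRE1 is known to cut besides Xbp1, 4 were tested, of which 2 were higher and 1 lower. Hgsnat rose (1.02) and Pdgfrb was lower (-4.07), at 0.31, 0.63 and 0.81 CPM with pamidronate and 11.16, 8.73 and 9.77 CPM in the controls.

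**Figure D5:**
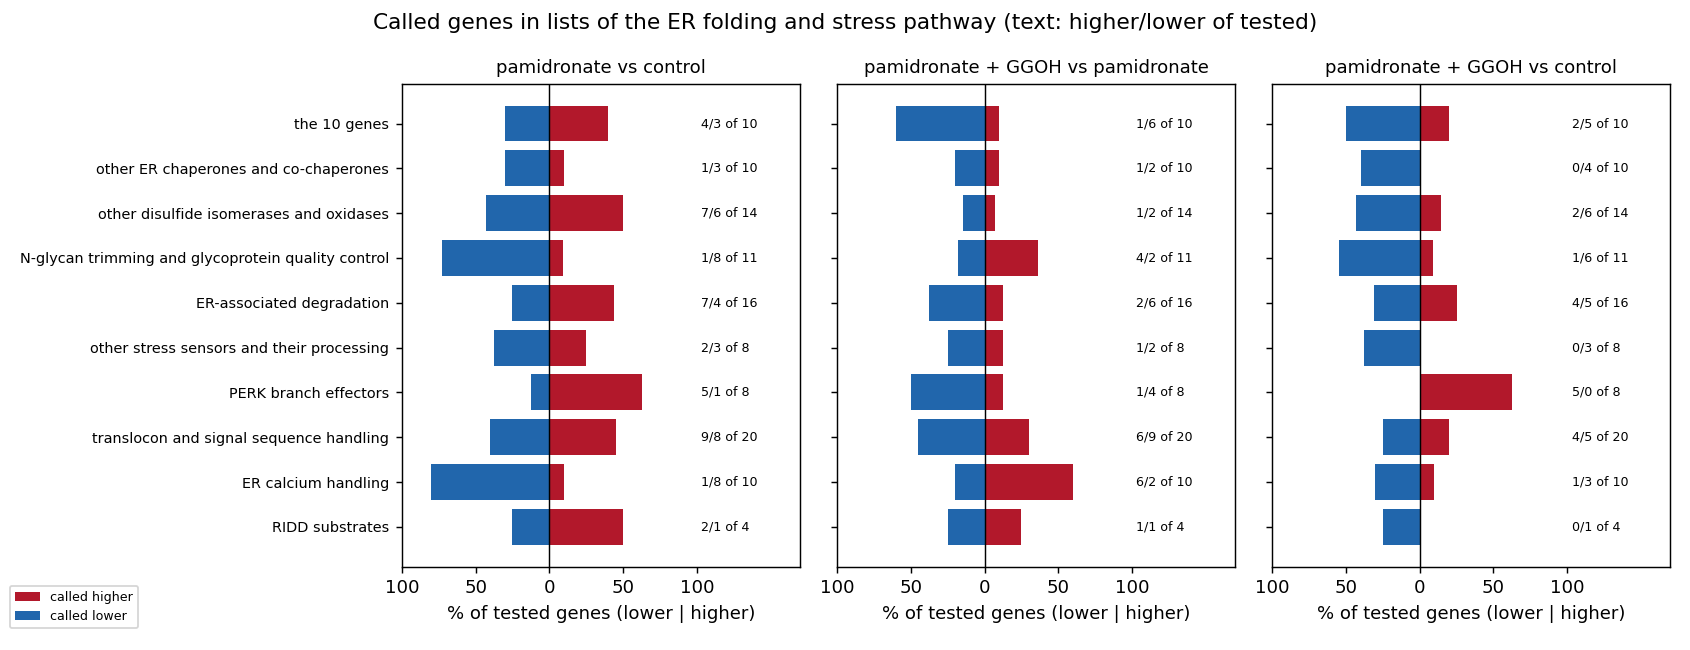
Share of tested genes called higher (right, red) and lower (left, blue) in each list of the ER pathway for the 3 comparisons, with the counts printed beside the bars. For pamidronate against control the PERK effectors show 5 higher and 1 lower of 8, and ER calcium handling 1 higher and 8 lower of 10.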

How the data were processed

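RNA was sequenced from 9 RAW 264.7 samples, in 3 groups of 3 taken from the treatment labels. Per the labels' protocols, libraries came from 300 ng of total RNA with ribosomal RNA removed. Per the submitters' processing notes, Trimmomatic 0.36, DESeq (no role given) and the build GRCm38 were used. Which aligner, counter and strand setting applied was not given in the sources used here. Raw counts fill the deposited table, and the deposited sample files hold the same values (0 rows differing). The deposited TPM values were used for levels between genes and for no test. A percentage in the names of the GGOH libraries is unexplained. The labels call only the controls biological replicates, so whether the treated libraries came from separate cultures is not known. The p-values rest on the spread between these samples and may not extend to new cultures. Replicates of a group differed by 3.90 to 34.5 in chi-square per degree of freedom, more than counting error gives. Counting error is small at these depths.

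Genes passing edgeR's filterByExpr (15963) were fitted with TMM factors and a robust quasi-likelihood model of all 9 libraries (edgeR 4.0.16, R 4.3.3), with Benjamini-Hochberg adjustment. SE is the absolute log2 fold change over the root of F. Simulated data for pamidronate against control had 15489 genes, of which 67, 67 and 66 were changed 1.5-fold, 2-fold and 4-fold. Of these, 53.7%, 70.1% and 93.9% were recovered, with 10 unchanged genes called. In the data 5784 genes were called higher and 5258 lower, a far larger share, so these percentages hold for the simulated setting alone. Ratios used counts plus 0.5. Same-numbered replicates were not paired: their deviations correlated at -0.22 to 0.20. Alternatives were other scalings, other filters, DESeq2 1.42.0, limma-voom 3.58.1, fits of 2 groups, a replicate block, each library left out, TPM from TMM-scaled libraries, and ratios to the mean of the other members. The 10 genes and all lists were chosen with earlier results of these data known. Named genes of each other list are up to 2 called higher and up to 2 called lower with the largest change for pamidronate against control and at least 5 CPM. Syvn1 and Dnajc3, named with the promoter element, and Atf6 and Mbtps1, named with the sensors, were chosen after their values were seen. Predicted and clone-named genes were left out of the likeness search.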

Additional observations from a re-analysis of the deposited data

How the results depend on the processing

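In all 18 refits (5 of scaling or filter, DESeq2, limma-voom, 2-group fits, a replicate block and 9 that leave out a library) the calls and directions of Hspa5, Dnajb9, Ern1, Xbp1 and Canx held for pamidronate against control, those of Hspa5, Dnajb9, Calr, Ern1, Hsp90b1 and Xbp1 for pamidronate + GGOH against pamidronate, and those of Hspa5, Dnajb9 and Hsp90b1 for pamidronate + GGOH against control. Calls that did not hold are named with each gene above, and the cause was not tested. Counts of calls moved with scaling. For pamidronate + GGOH against pamidronate, library totals alone gave 2 members higher (1 with TMM) and 5280 higher and 2493 lower of all genes (4022 and 3762 with TMM). For pamidronate + GGOH against control, members called lower were 3 with upper-quartile factors and 1 with library totals (5 with TMM), and all genes called higher and lower were 5834 and 2600 with upper-quartile factors and 6106 and 2303 with library totals (4202 and 4157 with TMM). For pamidronate against control, upper-quartile factors gave 7003 higher and 4317 lower of all genes, against 5784 and 5258 with TMM. No log2 fold change was called after changing sign. For Pdia4 with pamidronate against control, the log2 fold change was -0.019 with RLE factors and with DESeq2, -0.072 with no filter, -0.01 with the 2 groups alone and -0.195 to 0.208 when single libraries were left out. For pamidronate + GGOH against control, Pdia6 was at 0.098 with upper-quartile factors, 0.121 with library totals and -0.207 to 0.033 when single libraries were left out, and Pdia4 at 0.012 with library totals and -0.423 to 0.027 when single libraries were left out. The positive end came without control replicate 3 each time. The replicate block changed no member's call, with 4 higher and 3 lower for pamidronate against control and 5735 and 5245 of all genes. It gave 1 and 6 members for pamidronate + GGOH against pamidronate, and 2 and 5 for pamidronate + GGOH against control. Levels in TPM from TMM-scaled libraries moved by more than the spread between replicates for 11 of 30 gene and group values, for example Canx to 346.2 TPM with pamidronate + GGOH and 444.7 TPM in the controls. Ratios to the mean of the other members in place of Hspa5 moved in all 27 comparisons, since the denominator is another one. The lowest count of any of the 10 genes in any library was 478, for Dnajb9 in a control.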
